A study of Mus musculus with 10 samples.

Results

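The genes described here are the regulators of cyclic AMP (cAMP), protein kinase A (PKA) and G protein signalling, measured by RNA sequencing of AtT20/D16v-F2 cells, a mouse corticotroph line from a pituitary tumour. They were chosen by symbol alone, as the adenylyl cyclases (*Adcy*), the phosphodiesterases (*Pde* with a number and a letter), the PKA subunits, the A-kinase anchoring proteins (*Akap*), the regulators of G protein signalling (*Rgs*), *Rasd1* and *Rasd2*, the α subunits *Gnas*, *Gnal*, *Gnai1* to *Gnai3*, *Gnao1*, *Gnaq* and *Gna11*, and the cAMP-activated exchange factors *Rapgef3* and *Rapgef4*. This gave 87 of the 53801 genes in the table. The 10 libraries came from cells transduced with lentivirus, 5 from a stable line carrying a non-targeting control shRNA and 5 from a stable line carrying *Creb3l1*-shRNA1, which lowers *Creb3l1*, a transcription factor of the CREB3 family. Both lines were kept in the same serum-containing medium, and no treatment is stated for the cells that were sequenced. There was 1 line for each shRNA, so that the effect of the knockdown and other differences between the lines cannot be told apart. The study describes its replicates as biological, without saying what was separate between the 5 libraries of a line, and p-values measure the spread between these libraries.

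Adenylyl cyclases make cAMP when the α subunit Gs is active and are restrained by the Gi/o subunits, while phosphodiesterases break cAMP down. cAMP releases the catalytic subunits of PKA from its regulatory subunits and also opens the exchange factors EPAC1 and EPAC2, AKAPs hold PKA at particular sites in the cell, and RGS proteins shorten the life of active α subunits. In corticotrophs, corticotrophin-releasing hormone acts through Gs and cAMP on *Pomc* transcription and on the secretion of ACTH.

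The targeted gene was measured first. *Creb3l1* was at 3805, 3864, 3695, 3551 and 3531 normalised counts in the 5 non-targeting libraries and at 1093, 1133, 1014, 1159 and 1051 in the 5 *Creb3l1* knockdown libraries. The lines did not overlap, and *Creb3l1* fell by 1.76 ± 0.036 (SE) on the log2 scale (edgeR, adjusted p = 2.1e-33). Library totals were between 17420698 and 22205107 counts, which limits the precision of low counts. The corticotroph genes *Pomc* and *Tbx19* were abundant in both lines and *Avpr1b* had no count. The summed level of the 7 corticotroph markers was between 150430 and 161540 normalised counts in the non-targeting line and between 108550 and 115410 in the knockdown line, most of it *Pomc*, at a mean of 131411 and 92045. Of the 6 that were tested, *Pomc*, *Pcsk1* and *Tbx19* were lower, with log2 fold changes of -0.51, -0.46 and -0.27. *Neurod1* and *Pitx1* were higher, with 0.62 and 0.36. *Crhr1* was low in both lines, at 29.2 ± 6.09 and 26.9 ± 10.3 normalised counts (SD, n = 5). Its log2 fold change of -0.11 did not pass (adjusted p = 0.72, edgeR). By quantitative PCR, in contrast, the study saw no change of *Pomc* mRNA in its knockdown lines, which carried different *Creb3l1* shRNAs. On western blots of such lines it found less POMC prohormone and no change of the ACTH intermediate. The 9 markers of other pituitary hormone cells summed to at most 9.09 normalised counts in any library, 5 of them having no count. The 6 fibroblast markers, among which *Lum* had no count, summed to between 844 and 1227 in the non-targeting line and between 986 and 1776 in the knockdown line. The 3 of them that were tested, *Col1a1*, *Col1a2* and *Col3a1*, had adjusted p of 0.032, 0.42 and 0.45 (edgeR), above the threshold of 0.01. The part of these marker genes in the results was not tested. A pair of libraries stood apart. Non-targeting replicate 3 had 4.13% of its counts on *Gm42418*, where the rest of its line had 0.107% to 0.129%. In *Creb3l1*-shRNA1 replicate 2, the median log2 ratio to its line was -0.087 over the genes below 44.94% GC and 0.068 over those above 54.59% GC.

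Of the 87 genes, 57 had enough reads to be tested and 10 had no count in any library. The adjusted p was under 0.01 for 32 of the 57 (56.1%), against 40.7% of all 14336 genes tested in the same edgeR fit. In the knockdown line 21 of the 57 (36.8%) were higher, against 20.6% of all genes, and 11 (19.3%) were lower, against 20.1% of all genes. No overlap of normalised counts between the lines was seen for 29 of the 57 (50.9%), against 36.0% of all genes. The median log2 fold change of the 57 genes was 0.10, that of all genes was -0.0025, and the median mean count was also higher, at 723 against 594. The median size of the change without its sign was 0.22 among the 57 and 0.15 among all genes. A change of at least 1.5-fold together with the adjusted p was found for 9 of the 57 (15.8%), against 7.73% of all genes. These were *Pde5a*, *Rgs16*, *Adcy5*, *Rgs20* and *Rgs12*, which were higher, and *Rgs10*, *Pde9a*, *Rgs11* and *Pde4a*, which were lower. In bulk RNA fewer cells of a kind and less RNA per cell cannot be told apart.

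**Figure D1:**
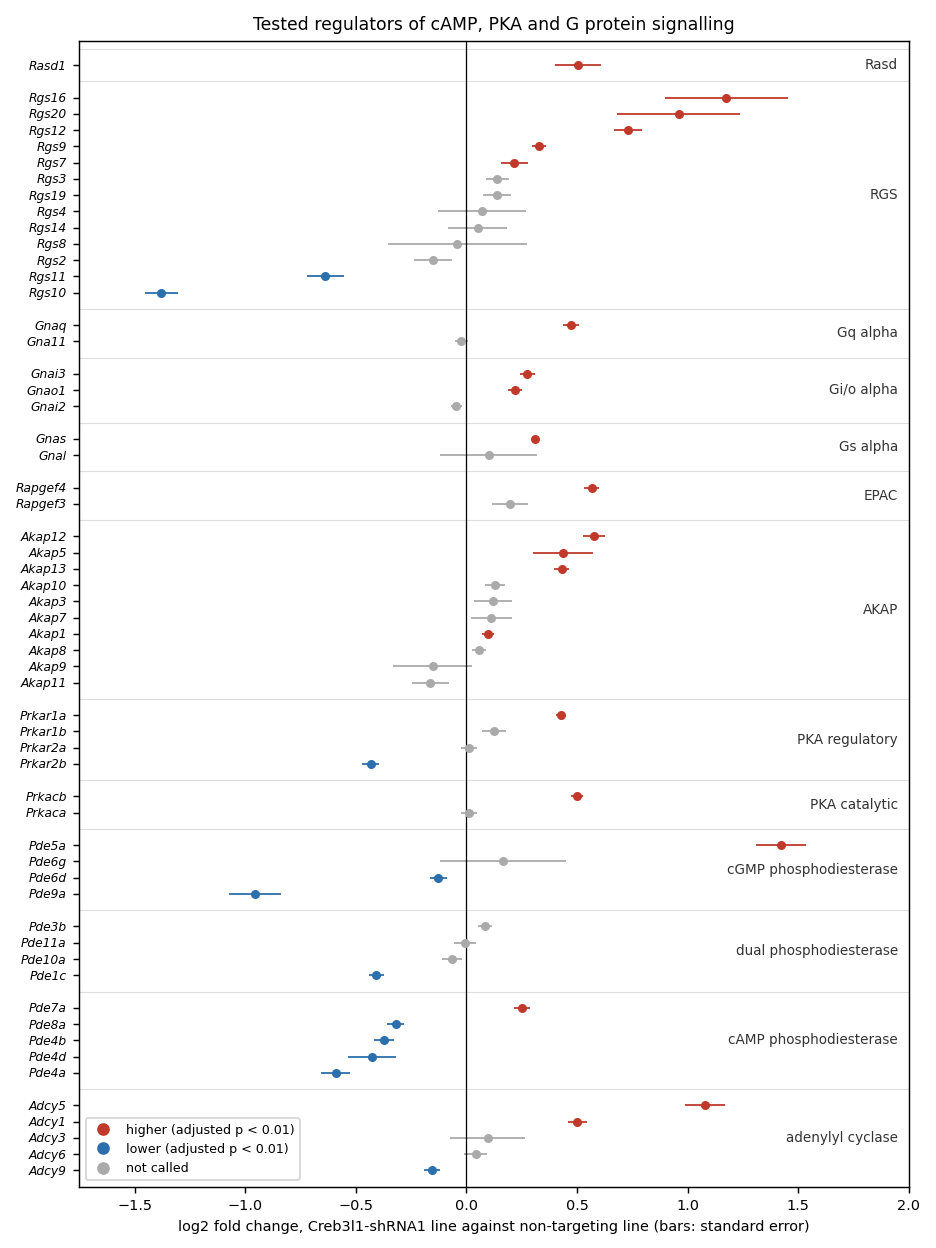
Log2 fold change of each of the 57 tested genes, *Creb3l1*-shRNA1 line against non-targeting line, grouped by role, with bars of 1 standard error (5 libraries in each line). Red points were higher and blue points lower at an adjusted p under 0.01 in edgeR, and grey points did not pass. All but 1 of the 5 tested cAMP-specific phosphodiesterases lie to the left of 0, while Gs, Gi/o and Gq each have 1 or 2 red points to the right.

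CREB3 family factors bind words related to the cAMP response element (CRE), so the promoters of these genes were read for 3 short words. The words were the full CRE TGACGTCA, the short CRE TGACG and the G-box core GACGTG. The short CRE and the G-box core were also read as their reverse complements, CGTCA and CACGTC. Every full CRE also holds a short CRE, and a G-box core overlaps a short CRE when flanked by the right base. RefSeq promoters of GRCm38.p6, 250 bases before to 50 bases after a start, were matched for 67 of the 87 genes and 45 of the 57 that were tested, some with several starts. Among the 27025 genes with a promoter in that table, 2.03% held the full CRE, 23.0% the short CRE and 7.15% the G-box core. The full CRE was found in 1 gene of the set, *Prkar1a*, which was higher in knockdown cells. The G-box core was found in 8 of the 67 genes. Of the 17 higher genes with a promoter 3 held it (*Gnas*, *Prkacb* and *Akap1*), of the 9 lower genes 2 (*Pde4b* and *Adcy9*), of the 19 that passed no threshold 2 (*Gna11* and *Pde10a*), and of the 22 untested genes 1. The short CRE was in 5 of the 17, 4 of the 9 and 8 of the 19. A match of letters is not evidence of binding, and binding was not measured in these libraries.

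The 30 bases around a word are shown for the tested genes in which a full CRE or G-box core lies before the start, to set genes that moved up, down or not past the threshold side by side. They are written 5′ to 3′ on the strand of the gene, with capitals for the bases of the 3 words.
*Prkar1a* (chr11:109650889-109650918, plus strand): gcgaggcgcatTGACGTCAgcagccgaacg
*Gnas* (chr2:174329888-174329917, plus strand): cggcccgagccgGACGTGggtgctgggacc
*Prkacb* (chr3:146813151-146813180, minus strand): actaacggtcccCACGTCcctcgctacttc
*Pde4b* (chr4:102421507-102421536, plus strand): ctgatttggctgCACGTCAattttctcatc
*Adcy9* (chr16:4420504-4420533, minus strand): ggacccggcggTGACGTGcgcgggccgcgc
*Gna11* (chr10:81545257-81545286, minus strand): tcaaccccttccCACGTCgacgcaacccca
*Pde10a* (chr17:8849878-8849907, plus strand): gggctggggaggGACGTGtggggtgtggta
The first base of the word lay at position -49 from the start in *Prkar1a*, at -106 in *Gnas*, at -222 in *Prkacb*, at -36 in *Pde4b*, at -23 in *Adcy9*, at -112 in *Gna11* and at -95 in *Pde10a*. The words of *Pde4b* and *Adcy9*, the only 2 lower genes with a G-box core, are the same 7 letters read on opposite strands and contain a short CRE. This longer word was not among the 3 that were read, and its share over all promoters was not computed. The windows of *Gnas* and *Pde4b* shown here overlap an annotated exon of their strand, and which transcript it belongs to was not recorded. The remaining 5 windows overlap no exon of their strand in the GENCODE annotation. The full CRE of *Prkar1a* also begins at position 39 after another RefSeq start of that gene, so that it lies before one start and after another.

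G protein α subunits stand first in the pathway. Of the 7 tested in the set 4 were higher in knockdown cells, against 20.6% of all genes, while the other 3 did not pass. Among the α subunits outside the set, *Gna14* and *Gna13* were higher, with log2 fold changes of 0.47 and 0.24. *Gnaz* and *Gna15* were lower, with -0.17 and -0.20, and *Gna12* (-0.069) did not pass. *Gnas*, which encodes Gs α (ENSMUSG00000027523, chromosome 2 from 174284320 to 174346744, plus strand of GRCm38), was by far the most abundant gene of the set. It was at 71077, 70358, 70791, 70036 and 68580 normalised counts in the non-targeting libraries and at 84477, 88908, 87475, 86856 and 86844 in the knockdown libraries. All 5 knockdown libraries lay above the control line. *Gnas* rose by 0.31 ± 0.017 (SE) on the log2 scale (edgeR, adjusted p = 7.4e-19). As TMM-scaled reads per kilobase of exon (RPKM), its level rose from 309 ± 4.29 to 383 ± 7.05 RPKM (SD, n = 5). *Gnas* is an imprinted locus with several promoters, and the counts per gene do not separate Gs α from its other transcripts. *Nespas* and *Gm20721* cover 21.96% of its exon sequence on the opposite strand, and the strand setting of the counting is not given in the sources used here. *Gnal*, the olfactory relative of Gs α, was near the limit of detection at 21.5 ± 3.52 (SD, n = 5) and 23.2 ± 2.97 (SD, n = 5) normalised counts, with a log2 fold change of 0.10 (adjusted p = 0.74, edgeR).

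Of the Gi/o subunits, which restrain adenylyl cyclase, *Gnai3* was at 1394, 1456, 1448, 1364 and 1359 normalised counts in the non-targeting libraries and at 1752, 1602, 1626, 1717 and 1782 in the knockdown libraries. *Gnao1*, the Go subunit of neuroendocrine cells, was at 2483, 2486, 2437, 2373 and 2415 and at 2758, 3041, 2881, 2756 and 2769. For both genes the lines did not overlap. Their log2 fold changes were 0.27 (standard error 0.035, adjusted p = 1.3e-08) and 0.22 (standard error 0.031, adjusted p = 9.7e-08) in edgeR. *Gnai2* had the highest count of the group, 5183 ± 109.1 (SD, n = 5) in the non-targeting line and 5021 ± 119.5 (SD, n = 5) in the knockdown line, and its log2 fold change of -0.046 did not pass (adjusted p = 0.14, edgeR). *Gnai1* had 1 count in all 10 libraries together.

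The Gq subunits act through phospholipase C rather than cyclase. *Gnaq* was at 3382, 3402, 3776, 3329 and 3246 normalised counts in the non-targeting libraries and at 5032, 4798, 4594, 4518 and 4835 in the knockdown libraries, with the highest control library well below the lowest knockdown library. *Gnaq* rose by 0.47 ± 0.036 (SE) on the log2 scale (edgeR, adjusted p = 3.2e-11). *Gna11*, its close relative, was at 4940 ± 176 (SD, n = 5) and 4859 ± 174 (SD, n = 5) normalised counts, and its log2 fold change of -0.024 did not pass (adjusted p = 0.52, edgeR). Per length, *Gna11* was the more abundant of the pair in both lines, at 59.5 against 27.3 RPKM in the non-targeting line and 58.5 against 37.9 in the knockdown line.

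**Figure D2:**
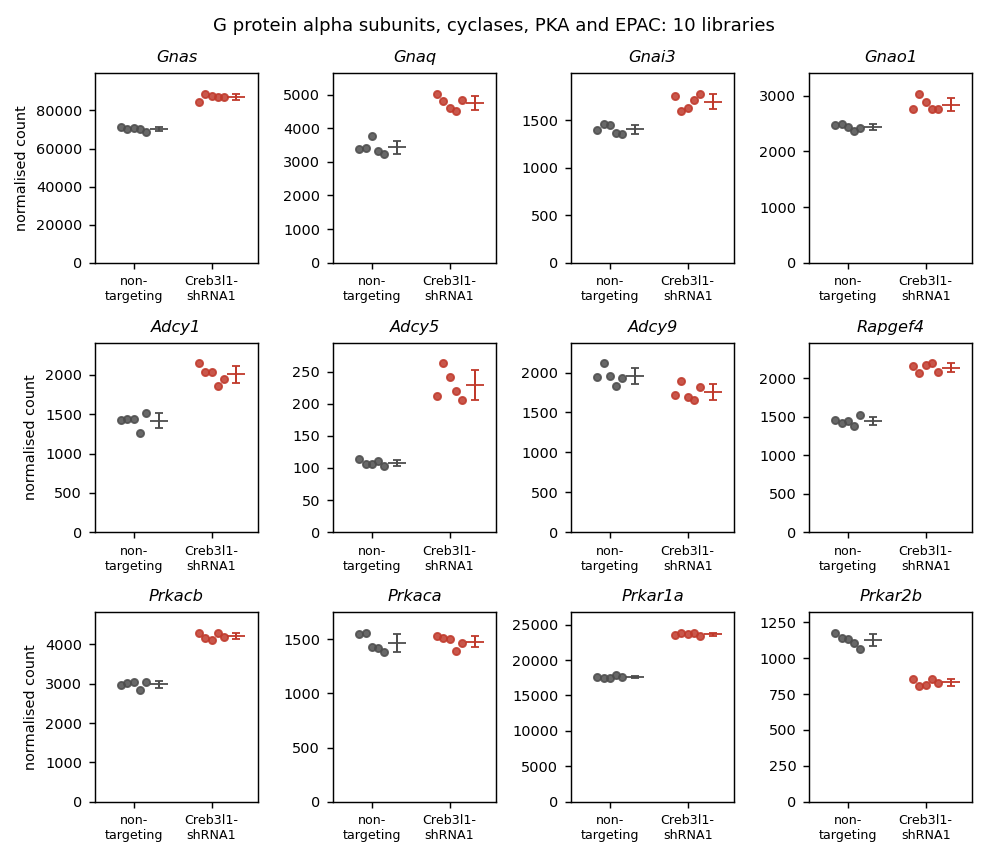
Normalised count (y axis, from 0) of 12 genes in each of the 5 non-targeting (grey) and 5 *Creb3l1*-shRNA1 (red) libraries, with the mean and SD beside the points. *Gnas*, *Gnaq*, *Gnai3*, *Gnao1*, *Adcy1*, *Adcy5*, *Rapgef4*, *Prkacb* and *Prkar1a* were higher and *Prkar2b* lower with no overlap between the lines, the points of *Adcy9* overlapped, and *Prkaca* did not pass the test.

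Of the 10 adenylyl cyclase genes 5 were tested. Of these 2 were higher and 1 was lower, against 20.6% and 20.1% of all genes. *Adcy5*, a cyclase inhibited by Gi and by calcium, had the largest change. It was at 114, 105.97, 106.4, 111 and 102.8 normalised counts in the non-targeting libraries and at 212, 263, 241, 219.8 and 206 in the knockdown libraries. The lowest knockdown library was far above the highest control library. *Adcy5* rose by 1.08 ± 0.09 (SE) on the log2 scale (edgeR, adjusted p = 2.3e-13). *Adcy1*, the calmodulin-stimulated cyclase, was at 1430.3, 1445, 1434, 1262 and 1521 in the non-targeting libraries and at 2151, 2037, 2032, 1862 and 1953 in the knockdown libraries. Its lines did not overlap either, and *Adcy1* rose by 0.50 ± 0.043 (SE) on the log2 scale (edgeR, adjusted p = 6.2e-10). *Adcy9*, a broadly expressed cyclase with little response to forskolin, was at 1944, 2118, 1954, 1835 and 1933 and at 1715, 1889, 1699, 1652 and 1823. *Creb3l1*-shRNA1 replicate 2, at 1889, was above non-targeting replicate 4, at 1835, so that the lines overlapped. *Adcy9* fell by 0.16 ± 0.037 (SE) on the log2 scale (edgeR, adjusted p = 6.7e-04). *Adcy6* and *Adcy3* had log2 fold changes of 0.041 and 0.10 and did not pass.

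Summed per length over the 10 cyclase genes, the level was 29.99 ± 1.64 RPKM (SD, n = 5) in the non-targeting line and 31.4 ± 1.1 in the knockdown line, with overlapping ranges. *Adcy9* made up 61.9% of the cyclase level in the non-targeting line and 53.1% in the knockdown line. The share of *Adcy1* went from 18.6% to 25.2% and that of *Adcy5* from 2.48% to 5.00%, while *Adcy6* stood at 15.4% and 15.1%.

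All 5 tested phosphodiesterases specific for cAMP passed the threshold, 4 lower and 1 higher in knockdown cells, where 40.7% of all genes passed and 20.1% were lower. The 3 members of the rolipram-sensitive PDE4 family that were tested were all lower. *Pde4a* was at 342, 368, 362, 361 and 346 normalised counts in the non-targeting libraries and at 239, 245, 226, 244 and 225 in the knockdown libraries, and it fell by 0.59 ± 0.067 (SE) on the log2 scale (edgeR, adjusted p = 7.4e-10). *Pde4b*, the most abundant of the 3, had a log2 fold change of -0.37 from a mean of 817 ± 16.2 (SD, n = 5) to 629.9 ± 40.8 (SD, n = 5). *Pde4d* had one of -0.43, with libraries from 115 to 154 in the non-targeting line and from 88.1 to 109.2 in the knockdown line. *Pde8a*, a high-affinity enzyme that IBMX does not block, was at 1038 ± 21.1 (SD, n = 5) and 831 ± 20.7 (SD, n = 5) with a log2 fold change of -0.32. For each of these 4 genes all 5 knockdown libraries lay below the control line.

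*Pde7a*, another high-affinity cAMP enzyme, went the other way. It was at 1208, 1325, 1226, 1163 and 1197 normalised counts in the non-targeting libraries and at 1437, 1437, 1498, 1442 and 1466 in the knockdown libraries, without overlap. *Pde7a* rose by 0.25 ± 0.036 (SE) on the log2 scale (edgeR, adjusted p = 1.3e-07).

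Of the 4 tested phosphodiesterases that act on both cAMP and cGMP, 1 was lower, against 20.1% of all genes. The other 3 did not pass. *Pde1c*, the calmodulin-activated enzyme, was at 1795, 1699.7, 1864, 1739 and 1782 normalised counts in the non-targeting libraries and at 1419, 1304, 1344, 1329 and 1289.6 in the knockdown libraries. The lines did not overlap, and *Pde1c* fell by 0.41 ± 0.034 (SE) on the log2 scale (edgeR, adjusted p = 2.6e-13). *Pde3b*, the cGMP-inhibited enzyme and the most abundant of the group, was at 2212 ± 49.7 (SD, n = 5) and 2341 ± 97.3 (SD, n = 5). Its log2 fold change of 0.082 did not pass (adjusted p = 0.029, edgeR), but did so without *Creb3l1*-shRNA1 replicate 2, at 0.10 (adjusted p = 0.0066). *Pde10a* and *Pde11a* had log2 fold changes of -0.065 and -0.0063. *Pde3a* was too low to be tested, with 5, 9, 3, 6 and 4 counts in the non-targeting libraries and 0 in each knockdown library. After scaling, its level in the non-targeting line was 9.44-fold that of a floor of 3 counts over the knockdown line. The counting error of the non-targeting counts is left out of this ratio.

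Per length, the 16 phosphodiesterase genes that act on cAMP summed to 52.3 ± 0.627 RPKM (SD, n = 5) in the non-targeting line and 48.97 ± 0.893 in the knockdown line. The sums did not overlap, at 51.3 to 53.0 against 47.9 to 49.9. *Pde8a* took the largest share in the non-targeting line, 24.2%, and 20.7% in the knockdown line, where *Pde3b* was ahead with 25.9% from 22.9%. The share of *Pde7a* went from 14.9% to 18.9%, and that of *Pde4b* from 7.3% to 6.01%.

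The phosphodiesterases of cGMP held the largest changes among the tested phosphodiesterase genes, in opposite directions. *Pde5a*, the sildenafil target, was at 70.4, 67.8, 51.3, 60.1 and 49.97 normalised counts in the non-targeting libraries and at 164, 181, 165, 149.7 and 147 in the knockdown libraries. Its lines were far apart, and *Pde5a* rose by 1.42 ± 0.11 (SE) on the log2 scale (edgeR, adjusted p = 4.7e-14). *Pde9a*, a high-affinity cGMP enzyme, was at 119.7, 105.97, 122, 118 and 106.5 in the non-targeting libraries and at 58.8, 52.4, 65.95, 52.1 and 65.4 in the knockdown libraries. All 5 knockdown libraries lay below the control line, and *Pde9a* fell by 0.95 ± 0.12 (SE) on the log2 scale (edgeR, adjusted p = 5.6e-09). Both are low per length, at 0.809 and 0.822 RPKM in knockdown cells. *Pde6d* carries prenylated proteins and is not itself an enzyme. Its counts overlapped at 1093 ± 38.3 (SD, n = 5) and 1000 ± 36.3 (SD, n = 5), with a log2 fold change of -0.13 (adjusted p = 0.0053, edgeR), and it lost its call without *Creb3l1*-shRNA1 replicate 2, 3, 4 or 5 or without non-targeting replicate 2 or 4, at adjusted p up to 0.023.

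**Figure D3:**
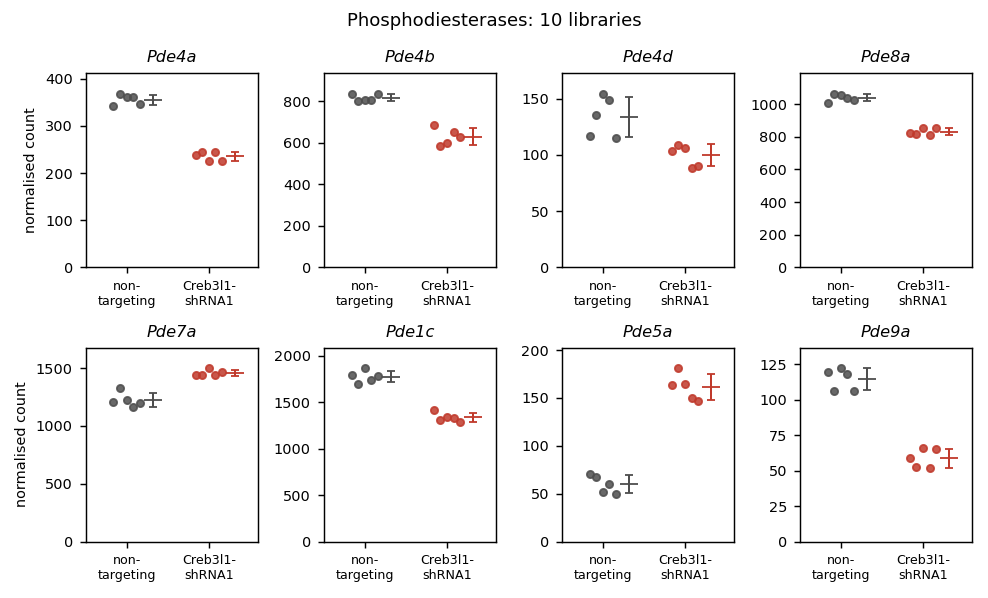
Normalised count (y axis, from 0) of 8 phosphodiesterase genes in each of the 5 non-targeting (grey) and 5 *Creb3l1*-shRNA1 (red) libraries, with the mean and SD beside the points. *Pde4a*, *Pde4b*, *Pde4d*, *Pde8a*, *Pde1c* and *Pde9a* are lower and *Pde7a* and *Pde5a* higher in the knockdown line, with no overlap in any of the 8 panels.

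Of the 6 PKA subunit genes, all of which were tested, 2 were higher and 1 was lower, against 20.6% and 20.1% of all genes. *Prkacb*, which encodes the catalytic subunit Cβ (ENSMUSG00000005034, chromosome 3 from 146729574 to 146812990, minus strand), was at 2960.1, 3019, 3047, 2848 and 3042 normalised counts in the non-targeting libraries and at 4299, 4169.7, 4109, 4281 and 4199.5 in the knockdown libraries. The lines did not overlap, and *Prkacb* rose by 0.50 ± 0.027 (SE) on the log2 scale (edgeR, adjusted p = 5.3e-19). *Prkaca*, the gene of Cα, was at 1468 ± 81.8 (SD, n = 5) and 1479 ± 52.7 (SD, n = 5), and its log2 fold change of 0.011 did not pass (adjusted p = 0.83, edgeR). By count *Prkacb* was the more abundant. Per length *Prkaca* was, which rests on exon unions of 8772 bases for *Prkacb* and 2488 for *Prkaca*. On that scale the share of *Prkacb* in the catalytic level went from 36.6% to 44.7%.

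Among the regulatory subunits, *Prkar1a* (RIα, ENSMUSG00000020612, chromosome 11 from 109649405 to 109669656, plus strand) was at 17669, 17416, 17485, 17896 and 17578 normalised counts in the non-targeting libraries and at 23562, 23782, 23637, 23876 and 23368 in the knockdown libraries. The 5 libraries of each line lay close together and the lines far apart. *Prkar1a* rose by 0.43 ± 0.02 (SE) on the log2 scale (edgeR, adjusted p = 1.7e-21). *Prkar1a* is the gene shown above with a full CRE before one of its starts. *Prkar2b*, the gene of RIIβ, an isoform of neural and endocrine cells, was at 1178, 1141, 1133, 1102 and 1066 and at 856, 807, 815, 853 and 826. All 5 knockdown libraries lay below the control line, and *Prkar2b* fell by 0.43 ± 0.039 (SE) on the log2 scale (edgeR, adjusted p = 2.3e-12). *Prkar2a* had a log2 fold change of 0.01 (adjusted p = 0.83) and *Prkar1b* one of 0.12 (adjusted p = 0.061) in the same edgeR fit, neither past the threshold.

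*Prkar1a* made up 84.5% of the regulatory level per length in the non-targeting line and 88.9% in the knockdown line, while *Prkar2b* went from 6.38% to 3.7%. The summed regulatory level was 238 ± 2.16 and 303 ± 2.38 RPKM (SD, n = 5), and the summed catalytic level was 45.9 ± 1.68 and 53.01 ± 1.01. The ratio of regulatory to catalytic mRNA was 5.19 ± 0.19 (SD, n = 5) in the non-targeting line and 5.73 ± 0.13 (SD, n = 5) in the knockdown line. Its libraries lay between 4.94 and 5.43 in the former and between 5.58 and 5.93 in the latter and did not overlap. These are mRNA levels, and subunit protein was not measured here.

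**Figure D4:**
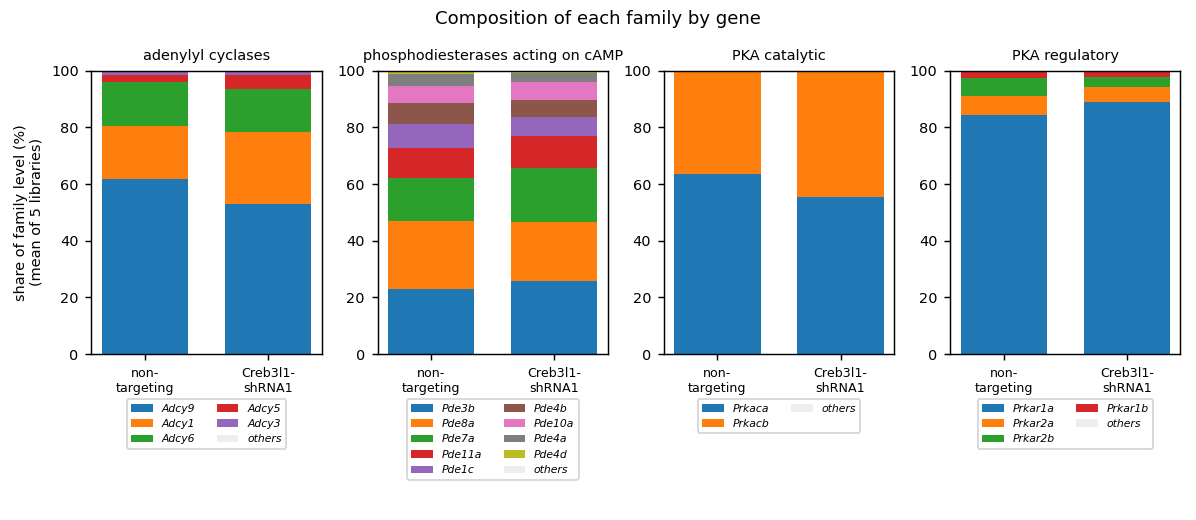
Share of the summed length-scaled level (y axis, %, mean of 5 libraries) taken by each gene of 4 families, in the non-targeting and the *Creb3l1*-shRNA1 line. The band of *Adcy9* is smaller and those of *Adcy1* and *Adcy5* are larger in the knockdown line, and the same holds for *Prkaca* against *Prkacb* and for *Prkar2b* against *Prkar1a*.

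*Rapgef4*, which encodes EPAC2, an exchange factor for Rap proteins, was at 1460.5, 1416, 1450, 1378 and 1516 normalised counts in the non-targeting libraries and at 2166, 2064, 2169, 2197 and 2086 in the knockdown libraries. The lines did not overlap, and *Rapgef4* rose by 0.57 ± 0.032 (SE) on the log2 scale (edgeR, adjusted p = 2.4e-18). *Rapgef3*, the gene of EPAC1, was at 186 ± 9.13 (SD, n = 5) and 213 ± 16.03 (SD, n = 5), with a log2 fold change of 0.20 that did not pass (adjusted p = 0.039, edgeR).

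Of the 10 tested anchoring proteins 4 were higher and the other 6 did not pass, where 40.7% of all genes passed and 20.6% were higher. *Akap12*, a scaffold at the plasma membrane also called gravin, was at 586, 655, 609, 559 and 571 normalised counts in the non-targeting libraries and at 872, 992, 879, 836 and 861 in the knockdown libraries. *Creb3l1*-shRNA1 replicate 2 was the highest of its line, and the lines did not overlap. *Akap12* rose by 0.58 ± 0.049 (SE) on the log2 scale (edgeR, adjusted p = 3.7e-13). *Akap13* had a log2 fold change of 0.43. *Akap1*, the mitochondrial anchor and the most abundant by count, was at 3728 ± 52.03 (SD, n = 5) and 3985 ± 139 (SD, n = 5), a log2 fold change of 0.10 (adjusted p = 0.0034, edgeR) that lost its call without non-targeting replicate 2 (0.090, adjusted p = 0.012) or *Creb3l1*-shRNA1 replicate 3 (0.079, adjusted p = 0.021). *Akap5* had a log2 fold change of 0.44 on few counts and kept its call in only 4 of 10 fits with 1 library removed.

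A single library moved the values of 2 anchoring proteins that did not pass. *Akap9*, a scaffold of the Golgi and centrosome, was at 3544, 3539, 3492, 3366 and 3585 normalised counts in the non-targeting libraries and at 3662, 1779.8, 3435, 3277 and 3586 in the knockdown libraries. *Creb3l1*-shRNA1 replicate 2 was at about 1780 and far below all the rest. The log2 fold change was -0.15 with all libraries and -0.0037 without that one. *Akap11* was also lowest in it, at 1532 against 1847 or more in the rest of the line, and its log2 fold change was -0.16 with it and -0.094 without it. The GC content of *Akap9* is 44.8% and that of *Akap11* 41.9%. With offsets for length and GC content, chosen after seeing the data, the log2 fold change of *Akap9* was -0.29 (adjusted p = 0.17, edgeR) and that of *Akap11* was -0.29 (adjusted p = 3.2e-05), both larger in size than without them.

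Of the 13 tested RGS genes 5 were higher and 2 were lower, against 20.6% and 20.1% of all genes. *Rgs10*, a small RGS protein that acts on Gi/o, had the largest fall among the 57 tested genes. It was at 391, 349.7, 396, 381 and 363 normalised counts in the non-targeting libraries and at 129, 149.8, 156, 149 and 139.9 in the knockdown libraries. The highest knockdown library, at 156, was far below the lowest control library, at 349.7. *Rgs10* fell by 1.38 ± 0.076 (SE) on the log2 scale (edgeR, adjusted p = 5.7e-19). *Rgs11*, a member of the R7 group that binds Gβ5, was at 316, 326, 275, 341 and 331 and at 168, 182, 208, 226 and 237. Its lines did not overlap, and *Rgs11* fell by 0.64 ± 0.083 (SE) on the log2 scale (edgeR, adjusted p = 2.8e-08).

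The other 2 members of the R7 group in the set with a call went up. *Rgs9*, the most abundant RGS gene by count, was at 1636, 1566, 1729.9, 1619 and 1625 normalised counts in the non-targeting libraries and at 2021, 2062, 2122, 1975 and 2082 in the knockdown libraries. The lines did not overlap, and *Rgs9* rose by 0.33 ± 0.032 (SE) on the log2 scale (edgeR, adjusted p = 2.0e-11). *Rgs7* had a log2 fold change of 0.22 and kept its call in 9 of 10 fits with 1 library removed. *Rgs12*, a large RGS protein that also binds Ras and Gi α, was at 364, 296, 293, 309 and 355 and at 547, 575, 518, 555 and 499. Its lines did not overlap either, and *Rgs12* rose by 0.73 ± 0.064 (SE) on the log2 scale (edgeR, adjusted p = 8.4e-13). *Rgs16*, a small RGS protein, had the largest rise of the group on very few reads, from 11.1, 5.3, 13.4, 11.3 and 10.4 to 20.2, 35.3, 17.02, 22.7 and 21.8 normalised counts, and it rose by 1.17 ± 0.28 (SE) on the log2 scale (edgeR, adjusted p = 5.0e-04). *Rgs20* was equally low, with a log2 fold change of 0.96, and kept its call in 7 of 10 such fits.

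Per length the RGS genes together were at 48.4 ± 1.35 RPKM (SD, n = 5) in the non-targeting line and 46.8 ± 1.48 in the knockdown line, with overlapping ranges. Within this sum *Rgs10* went from 22.4% to 8.92% and *Rgs9* from 26.1% to 33.9%. *Rgs2*, *Rgs3*, *Rgs4*, *Rgs8*, *Rgs14* and *Rgs19* did not pass, with log2 fold changes between -0.15 and 0.14.

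*Rasd1*, a small G protein induced by glucocorticoids that also activates Gi/o, was at 97.6, 99.6, 127, 101.4 and 94.3 normalised counts in the non-targeting libraries and at 148, 136, 134, 175 and 138 in the knockdown libraries. Non-targeting replicate 3 was the highest of its line and still below every knockdown library. *Rasd1* rose by 0.50 ± 0.10 (SE) on the log2 scale (edgeR, adjusted p = 8.4e-05). The study picked *Rasd1* from these libraries and also found it changed by quantitative PCR in knockdown cells. *Rasd2* had 9 counts over the non-targeting line and 0 over the knockdown line. After scaling, the former was 3.15-fold a floor of 3 counts over the knockdown line, a ratio that leaves out the counting error of the 9.

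**Figure D5:**
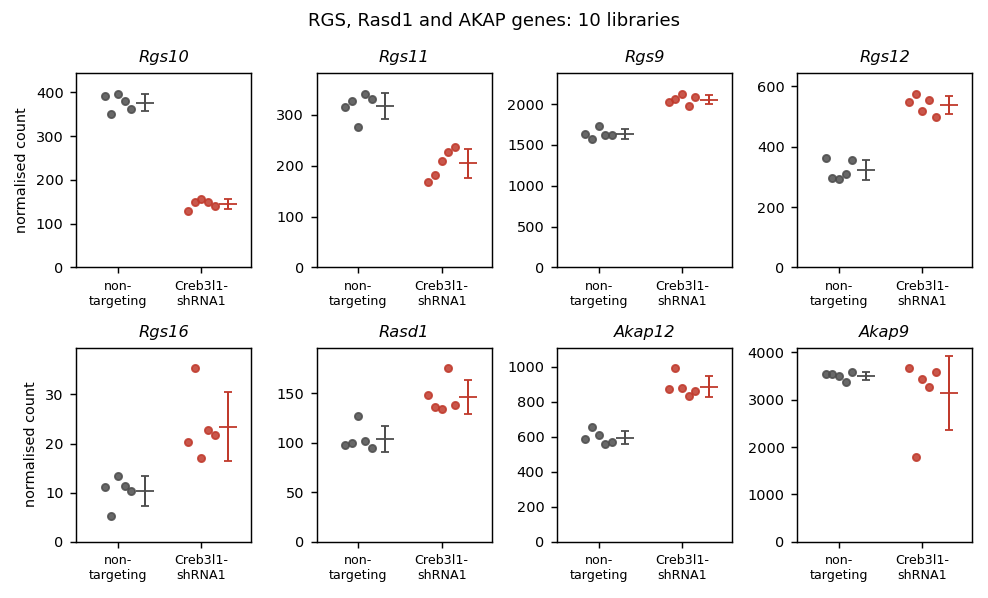
Normalised count (y axis, from 0) of 5 RGS genes, *Rasd1*, *Akap12* and *Akap9* in each of the 5 non-targeting (grey) and 5 *Creb3l1*-shRNA1 (red) libraries, with the mean and SD beside the points. *Rgs10* and *Rgs11* are lower and the next 5 genes higher without overlap, while in *Akap9* a single red point near 1780 lies far below the rest.

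The 30 untested genes of the set were at or near 0. No count was found for *Akap4*, *Rgs1*, *Rgs13*, *Rgs17*, *Rgs18*, *Rgs21*, *Adcy4*, *Pde7b*, *Pde6h* and *Pde1b*, and genes of these libraries with so few reads could not be compared at this depth. The highest of the 30 was *Adcy7*, with 36 counts over the non-targeting line and 56 over the knockdown line. *Pde8b* had 7 and 20 counts and *Pde4c* 2 and 14. *Akap2* shares 84.4% of its exon sequence with *Pakap* and *Pde2a* 64.3% with *Gm45837* on the same strand, so that the few counts of these 2 genes are uncertain.

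The partners of these genes were read from a list of 47 that holds the β and γ subunits, the remaining α subunits, receptor kinases, arrestins, PKA inhibitors and cAMP-gated channels. Of the 40 tested, 14 were higher and 7 lower, or 21 in all, with a median log2 fold change of 0.0020, against 40.7% called and a median of -0.0025 among all genes. *Gpsm1*, which holds Gi α in its inactive form, was the largest rise at 0.66, and *Gpsm2*, of the same family, fell by 0.35 on the log2 scale. Of the inhibitor peptides of the PKA catalytic subunit, *Pkib* was at 552, 527, 616, 526 and 586 normalised counts in the non-targeting libraries and at 877, 798, 822, 825 and 817 in the knockdown libraries, and *Pkia* had a log2 fold change of 0.25. Both were higher, *Pkib* without overlap and with a log2 fold change of 0.56 (adjusted p = 1.8e-13, edgeR), and *Pkig*, the most abundant of the 3, had a log2 fold change of -0.058 and did not pass. *Prkx*, a kinase related to the PKA catalytic subunits, rose by 0.38, the receptor kinase *Grk3* by 0.42 and the channel *Hcn4* by 0.37 on the log2 scale. Of the 12 tested β and γ subunits 3 were higher and 4 lower, against 20.6% and 20.1% of all genes. *Gnb1*, the most abundant of them by count, *Gnb2* and *Gng12* were higher, with log2 fold changes of 0.087, 0.15 and 0.36. *Gnb3*, *Gng2*, *Gng3* and *Gng4* were lower, with log2 fold changes of -0.50, -0.24, -0.26 and -0.13.

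A list of 20 genes known to be induced by cAMP in neuroendocrine and other cells was also read, 18 of which were tested. It had 4 genes higher and 6 lower in knockdown cells, or 10 of 18, against 40.7% of all genes, with a median log2 fold change of 0.018. *Scg2*, *Ppargc1a*, *Nr4a2* and *Per1* were higher, with log2 fold changes of 0.91, 0.40, 0.26 and 0.12. *Nfil3*, *Vgf*, *Pcsk1*, *Nr4a1*, *Dusp4* and *Dusp1* were lower, with log2 fold changes of -0.58, -0.48, -0.46, -0.39, -0.30 and -0.29. The immediate early genes *Fos* (0.05) and *Junb* (0.01), the kinase gene *Sik1* (0.026) and *Crem* (0.055) did not pass. *Scg2*, *Pcsk1* and *Nr4a1* were picked by the study from these libraries. *Vgf* was marked, when the genes were chosen, as also on the study's list from them. The direction of these genes here is therefore not independent evidence. The study also found *Scg2*, *Pcsk1* and *Nr4a1* changed by quantitative PCR in knockdown cells, and *Pcsk1* lower in a line with another *Creb3l1* shRNA.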

How the data were processed

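Poly(A) RNA of the 10 libraries was sequenced in pairs after a stranded preparation. The authors used STAR with GRCm38 and featureCounts, and the deposited values are whole-number counts per gene, not normalised, which was the only unit used. The strand setting of the counting is not given in the sources used here. All other values were computed from these counts (R 4.3.3, with the packages edgeR 4.0.16, limma 3.58.1 and DESeq2 1.42.0; Python 3.11.15 for the promoters and figures). The 14336 genes kept by filterByExpr were scaled by TMM and compared by edgeR's quasi-likelihood test in its robust form, with Benjamini-Hochberg adjustment over all of them and a threshold of 0.01. Standard errors (SE) were derived from the F statistic. A normalised count is the count divided by the effective library size and brought to the mean size. RPKM used the exon union of GENCODE genes on GRCm38. That union holds the exons of all annotated transcripts, used or not, so that ranks, shares and ratios between genes depend on it. Of 53801 identifiers, 53620 had a symbol. Named genes are called members with at least 50 normalised counts on average and a 1.5-fold change, the highest count and largest changes of each role, and all tested α, PKA, EPAC and Rasd genes. Other members and genes of the lists were picked after their values were seen. The members and lists were chosen with earlier results of these data known. Alternatives for scaling, filter, test, threshold, replicate block and single libraries were tried. No 2 libraries of a line agreed within sampling noise (chi-square per degree of freedom from 1.85 to 73.1). Totals of 17420698 to 22205107 counts limit the precision of low counts. A floor covers only the counting error of the line without counts, not that of the other line.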

Additional observations from a re-analysis of the deposited data

Results flagged for a closer look

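The 57 tested genes of the set, *Creb3l1* and the library totals were examined in each line, or 118 groups of 5 libraries, and 8 had an extreme library that exceeded the Dixon critical value of 0.71 for 5 samples. By chance about 1 in 20 groups, or 5.9, would. In *Creb3l1*-shRNA1 replicate 2, *Akap9* was at 1779.8 normalised counts, against 3277.4 to 3662.2 in the rest of its line, *Akap12* was at 992.13, against 835.7 to 878.64, and *Gna11* was at 5162.9, against 4725.2 to 4833.6. Replicate 3 of the knockdown line was highest for *Adcy6*, at 694.62, where the rest lay between 636.71 and 650.69. In the non-targeting line *Rgs2* was at 207.2 in replicate 1, against 173.5 to 181.2, and *Rgs4* at 34.969 in replicate 2, against 44.317 to 47.274. *Rasd1* was at 127.15 in replicate 3, against 94.291 to 101.41, and *Akap3* at 161.5 in replicate 4, against 144.26 to 147.29.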

How the results depend on the processing

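The fits without robust estimation, without both libraries that stood apart and with offsets for length and GC content were chosen after seeing the data. The 32 genes called kept their direction in each of the fits planned from the start. At an adjusted p under 0.01 and with no minimum change, 27 of them kept their call in all of those fits that tested them. The exceptions were *Akap1*, *Akap5*, *Pde6d*, *Rgs20* and *Rgs7*. With each library left out in turn, 28 to 32 of the set and 5408 to 6026 of all genes were called. The number of the set was 31 with DESeq2 and also with unscaled totals, 33 with no low-count filter, 30 with at least 10 counts in every library, 36 at an adjusted p under 0.05, 31 without robust estimation, 32 without both libraries and 33 with the offsets, which kept 29 of the 32. A minimum change of 1.5-fold left 1108 of all genes, 9 of the set (5 higher, 4 lower), 1 of the partners and 1 of the cAMP-induced genes. With the offsets *Akap5*, *Rgs7* and *Pde6d* (-0.031) lost their call, and *Akap11*, *Pde10a*, *Rgs19* and *Prkar1b* (0.18) gained one.

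Some small changes that did not pass reversed. With the offsets *Gna11* was at 0.0090, *Gnai2* at 0.023, *Pde3b* at -0.0069 and *Prkar2a* at -0.033. Without both libraries *Prkaca* was at -0.0056. *Prkaca* reversed in 4 fits that left out a library, its values over all 10 such fits running from -0.0082 to 0.036 (reversed without non-targeting replicate 3, 4 or 5 or *Creb3l1*-shRNA1 replicate 1), and *Prkar2a* in 3, with values from -0.015 to 0.033 (reversed without non-targeting replicate 4 or 5 or *Creb3l1*-shRNA1 replicate 1). *Pde6d* lost its call with library totals only (-0.12) and without both libraries. The cause was not tested.

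Between libraries of equal replicate number, deviations from the line means correlated at -0.0996 to 0.0912, and 4 of 10 libraries correlated best with their own number. The pairs are few and include the libraries that stood apart, so this check cannot settle whether equal numbers mark paired libraries. With a replicate block 6013 genes and 32 of the set passed. Depth limits the genes near 10 to 20 normalised counts, such as *Rgs16* and *Rgs20*, whose standard errors were 0.28 and 0.28.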
